A study of Mus musculus with 17 samples.

Results

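The genes described here encode the respiratory chain subunits that are transcribed in the nucleus: NADH dehydrogenase (complex I), succinate dehydrogenase (complex II), the cytochrome bc1 complex (complex III), cytochrome c oxidase (complex IV) and ATP synthase (complex V). Members were chosen by gene symbol alone (Nduf followed by a, b, c, s or v and a number, Sdha to Sdhd, Uqcr, Cox4 to Cox8, Atp5 and Cyc1, with symbols ending in -ps left out), and the rule uses no measured value. They were 89 of 55453 gene symbols in the table, and 85 of them reached a mean of 1 TPM (transcript abundance scaled for transcript length and to the same total in every library) over all mice and were tested. The tested members were 38 genes of complex I, 4 of complex II, 9 of complex III, 17 of complex IV and 17 of complex V. The complex was read from the symbol, which need not match the complex that holds the protein. Ndufa4, the highest gene counted in complex I (mean 857 TPM), and Ndufa4l2 are placed there by symbol only.

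RNA was sequenced from frozen bulk cortex of 17 male C57BL/6J mice, in the 3 lines of Hnrnph2, the X-linked gene of the RNA-binding protein hnRNPH2. The groups were hemizygous KO mice at 8 weeks (n = 3) with wild-type littermates (n = 3), hemizygous R206W knockin mice at 8 weeks (n = 3) with wild-type littermates (n = 3), and hemizygous P209L knockin mice at 3 weeks (n = 3) with wild-type littermates, of which 2 were analysed here. The KO allele carries a frameshifting indel, and the knockins carry a single substitution in the nuclear localization signal of the endogenous protein. Only the P209L line was taken at 3 weeks, so age and line cannot be told apart, and in the mutants age, line and allele cannot be told apart.

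Electrons from NADH and succinate enter the chain at complexes I and II and pass through complexes III and IV to oxygen, and complex V makes ATP from the proton gradient. All complexes except complex II also hold subunits encoded by mitochondrial DNA, and in complexes I, III and IV the catalytic core is small and is surrounded by many short supernumerary subunits. Neurons of the cortex depend on this pathway for most of their ATP, and several complex IV subunits exist as paired isoforms used in different tissues.

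Promoters are shown for 4 members because they span the patterns described below: Uqcr11 and Cox8a had the smallest p of complexes III and IV between the ages in controls, Cox6a1 is the ubiquitous isoform of a tissue-specific pair, and Cox8b is the muscle isoform paired with Cox8a. Each run is the gene strand from 250 bases before to 50 bases after the start in RefSeq on GRCm38.p6, at chr10:80406772-80407071 (minus strand) for Uqcr11, chr19:7217567-7217866 (minus strand) for Cox8a, chr5:115348909-115349208 (minus strand) for Cox6a1 and chr7:140900397-140900696 (minus strand) for Cox8b. Capitals mark, on either strand, the NRF1 core GCGCATGCG, the ETS core CCGGAAG, the YY1 core AAGATGGCG and the TATA box TATAAA. The NRF1 core overlaps its own reverse complement, which makes the longer run in Cox6a1.
Uqcr11: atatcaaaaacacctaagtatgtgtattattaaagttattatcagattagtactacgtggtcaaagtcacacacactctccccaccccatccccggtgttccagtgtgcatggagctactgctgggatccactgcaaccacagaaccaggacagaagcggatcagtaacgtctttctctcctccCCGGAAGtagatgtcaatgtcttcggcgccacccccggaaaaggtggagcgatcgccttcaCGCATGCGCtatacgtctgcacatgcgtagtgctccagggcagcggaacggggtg
Cox8a: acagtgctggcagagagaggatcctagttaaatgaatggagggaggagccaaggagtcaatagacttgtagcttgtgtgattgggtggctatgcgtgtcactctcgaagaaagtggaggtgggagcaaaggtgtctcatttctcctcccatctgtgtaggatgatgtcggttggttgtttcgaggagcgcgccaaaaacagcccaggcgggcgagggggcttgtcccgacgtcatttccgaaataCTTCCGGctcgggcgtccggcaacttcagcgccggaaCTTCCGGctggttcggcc
Cox6a1: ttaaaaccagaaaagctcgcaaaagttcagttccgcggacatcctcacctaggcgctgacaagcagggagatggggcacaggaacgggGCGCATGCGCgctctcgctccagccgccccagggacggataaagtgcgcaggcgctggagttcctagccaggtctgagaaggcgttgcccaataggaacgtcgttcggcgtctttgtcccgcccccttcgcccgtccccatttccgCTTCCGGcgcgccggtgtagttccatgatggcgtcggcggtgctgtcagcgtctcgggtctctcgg
Cox8b: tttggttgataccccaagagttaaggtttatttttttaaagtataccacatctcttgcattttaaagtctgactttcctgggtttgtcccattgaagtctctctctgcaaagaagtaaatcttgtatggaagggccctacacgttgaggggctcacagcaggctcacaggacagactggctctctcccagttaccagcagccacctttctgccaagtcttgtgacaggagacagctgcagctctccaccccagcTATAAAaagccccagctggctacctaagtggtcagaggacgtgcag

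Uqcr11 held an NRF1 core and an ETS core, Cox8a held the ETS core at 2 places, Cox6a1 held both cores, and Cox8b held a TATA box and none of the other 3 motifs. NRF1, the ETS factor GABP and YY1 are known regulators of nuclear genes for mitochondrial proteins. Over all members, the RefSeq table gave 71 windows of 66 tested genes, and 5 of these genes had 2 windows that can share bases. The NRF1 core was in 11.3% of the member windows, against 3.26% of the windows of all genes tested and 1.75% of all promoters in the table. The ETS core was in 23.9%, against 15.6% and 8.86%, and the YY1 core in 9.86%, against 2.7% and 1.4%. The TATA box was in 11.3%, against 7.4% and 13.6% (on the gene strand alone 4.23%, against 4.43% of windows of all genes tested), and the GC box GGGCGGG in 32.4%, against 44.4% and 25.6%. The order for the ETS core also depended on the strand: on the gene strand alone it was in 7.04% of member windows and 8.58% of windows of all genes tested. The member windows had a median GC content of 57.3% and a median of 19 CpG dinucleotides, and Cox8b, with 2, was far below that median. By complex, the NRF1 core was in 2 of 34 windows of complex I, 0 of 3 of complex II, 2 of 5 of complex III, 1 of 12 of complex IV and 3 of 17 of complex V, and the YY1 core was in 5, 0, 0, 0 and 2 of the same windows. A match of letters is a description of these windows and not a site of binding.

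Before the results, the libraries were checked. Hnrnph2 was at 23.5, 21.3 and 24.4 TPM in KO mice and at 80.5, 145 and 140 TPM in their controls, and the knockin mice overlapped their controls. The neuron, excitatory cortex and oligodendrocyte markers were all detected. The library KO control 1 gave 20.1% of its TPM to mitochondrially encoded genes, against 10.7% to 15.4% in the other 16. Its neuron markers summed to 3056 TPM, against 4322 to 5504 TPM in the other 8-week mice. The library P209L control 2 had 1766 TPM summed over 4 choroid plexus markers (mostly Ttr, at 1740 TPM), against 2.25 to 25.9 TPM in all others, and also the highest summed oligodendrocyte (5928 TPM) and blood (4884 TPM) markers. The counts between the ages in controls are given with and without these libraries, as are named members whose call or value turned on one of them. For the KO comparison, leaving out KO control 1 is given only as part of a range. In bulk tissue, fewer cells of a type and less RNA per cell cannot be told apart.

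The members were abundant transcripts, and complex V took the largest share of their summed TPM. On the TPM scale, which divides by transcript length, ATP synthase genes gave 31.0% of the members' summed level, complex I 28.0%, complex IV 27.7%, complex III 11.0% and complex II 2.21%. The highest mean levels were Cox8a (1518 TPM) and Atp5b, the catalytic beta subunit of ATP synthase (1474 TPM). All 9 tested genes of complex III and all 17 of complex V had a mean over 100 TPM, as did 35 of 38 in complex I, 3 of 4 in complex II and 11 of 17 in complex IV. The 6 complex IV genes under 30 TPM were Cox4i2, Cox6a2, Cox6b2, Cox7a1 and Cox8b, which are tissue-restricted isoforms, and Cox6c2, a near copy of Cox6c. Of the 4 members not tested, Cox8c was listed at 0.10 TPM in KO control 1 and at 0 in the other 16 mice, and Cox7b2, a testis isoform, averaged 0.82 TPM. The remaining pair were Ndufa11b and Ndufs6b. The annotation lists Ndufa11b, Ndufs6b, Cox6c2 and Ndufb4c as processed pseudogenes, and reads of such near copies may have been split between them and their parent genes in the authors' quantification, so their values are uncertain.

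The main difference was between the ages: the summed TPM of complexes I, III, IV and V was higher in the 3-week mice, and that of complex II overlapped. The summed TPM of the members was 36733 and 32475 in the P209L controls and 39703, 38057 and 36687 in P209L mice. In the 12 mice at 8 weeks it ran from 23293 over a median of 25019 to 27099 TPM. The ages did not overlap, and P209L control 2 was the lowest of the 3-week mice. The 3-week mean was 36731 ± 2679 TPM (SD, n = 5) and the 8-week mean 25046 ± 1320 TPM (SD, n = 12).

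Cell type markers differed between the ages as well. The summed TPM of 6 neuron markers was 2942 ± 250 (SD, n = 5) at 3 weeks and 4748 ± 645 (SD, n = 12) at 8 weeks, that of excitatory cortex markers 731 ± 78.3 and 955 ± 158, that of astrocyte markers 828 ± 133 and 1216 ± 106, and that of microglia markers 159 ± 12.4 and 222 ± 22.7. Blood markers were at 2843 ± 1204 TPM at 3 weeks and 868 ± 259 TPM at 8 weeks. In the controls alone, 2 of 6 neuron, 4 of 6 excitatory cortex, 2 of 5 astrocyte and 3 of 5 microglia markers were lower at 3 weeks, and 4 of 6 oligodendrocyte and 5 of 5 blood markers were higher (limma, adjusted as for all genes). Among all genes tested 24.8% were lower and 11.3% higher in controls, so the neuron and astrocyte counts were not far from that share. In the mutants 4, 3, 3 and 3 of these markers were lower in the same order, 1 oligodendrocyte marker was lower and 2 blood markers were higher. The shares of all genes there were 32.1% lower and 13.9% higher. Their part in the members' difference was not tested.

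By complex, the summed TPM of complex I was 10193 ± 823 (SD, n = 5) at 3 weeks and 7058 ± 428 (SD, n = 12) at 8 weeks. Complex III was at 4245 ± 412 against 2681 ± 160 TPM, complex IV at 10631 ± 584 against 6767 ± 426 TPM, and complex V at 11014 ± 847 against 7918 ± 337 TPM. In each of these 4 complexes the lowest 3-week mouse was above the highest 8-week mouse. Complex II was at 649 ± 33.6 TPM against 621 ± 54.2 TPM, and its ranges overlapped. This sum gives most weight to Sdha, the highest of the 4 genes (mean 247 TPM). The median TPM of the 4 genes in each mouse did differ, at 184 ± 14.5 (SD, n = 5) at 3 weeks and 137 ± 10.6 (SD, n = 12) at 8 weeks.

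**Figure D1:**
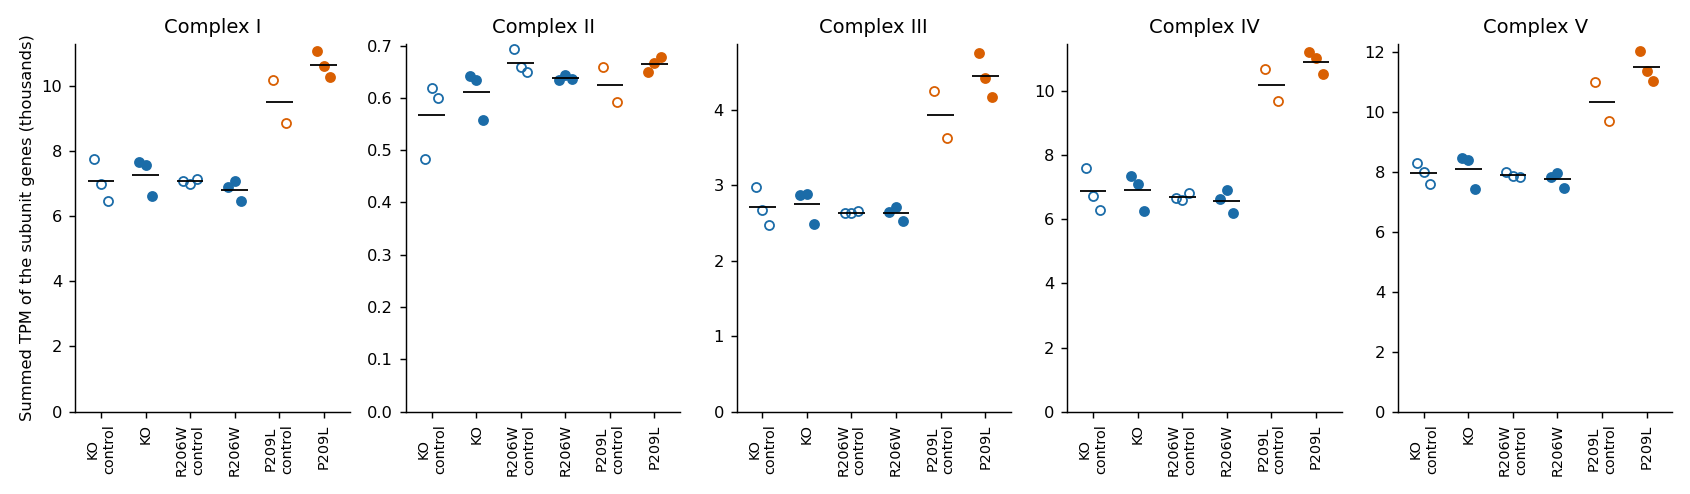
Summed TPM (in units of 1000 TPM, axis from 0) of all member genes of each complex, tested or not, in each of the 17 mice. Open circles are wild-type controls and filled circles mutants, with blue for 8 weeks, orange for 3 weeks and a bar for the group mean. In complexes I, III, IV and V every 3-week mouse lies above every 8-week mouse, and in complex II the ages overlap.

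In a linear model over all genes (limma on log2(TPM + 1), Benjamini-Hochberg adjusted p under 0.05), 48 of 85 members were higher and 1 was lower in the 3-week controls (n = 2) than in the 8-week controls (n = 6). Among all genes tested 36.1% passed in either direction, 11.3% as higher and 24.8% as lower. The median log2 difference of the members was 0.40, and that of all genes was -0.12. In the mutants, where P209L (n = 3) was set against KO and R206W (n = 6), 63 members were higher and 5 lower, against 13.9% and 32.1% of all genes (45.9% in either direction), with a median of 0.56 for the members and -0.16 for all genes. These comparisons share no mouse, but both set the P209L line against the others. They also share the spread per gene that the model takes from all 17 mice, so their adjusted p values are not independent. In a fit of the compared groups alone, 39 members passed in controls (26.6% of all genes) and 70 in mutants (47.8%). In the main fit the members higher in both were 47, which is 97.9% of those higher in controls and 74.6% of those higher in mutants. Across all 17 mice, 40 members were higher in each of the 5 mice at 3 weeks than in any mouse at 8 weeks and 0 were lower in each, against 6.49% and 10.2% of all genes.

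The adjusted p rests on few 3-week controls. Without P209L control 1, 24 members passed and the median difference was 0.32, and 18.3% of all genes passed. Without P209L control 2, 42 members passed with a median of 0.48, and 16.7% of all genes. Without both KO control 1 and P209L control 2, 58 members passed with a median of 0.52, and 36.1% of all genes.

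**Figure D2:**
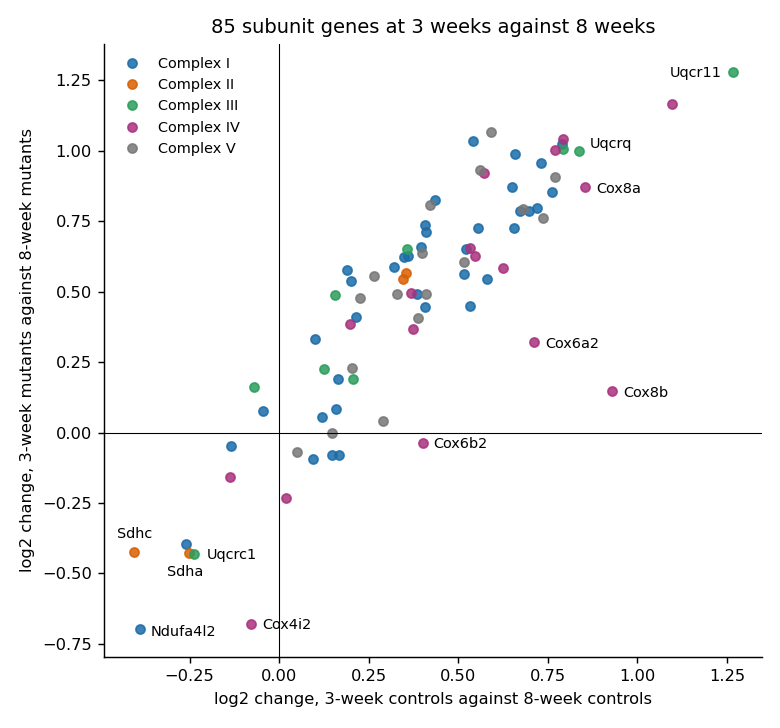
Log2 difference of each of the 85 tested members at 3 weeks against 8 weeks in wild-type controls (horizontal axis) and in mutants (vertical axis), coloured by complex, with some members named. Most members lie to the upper right, Uqcr11 is the farthest out at 1.27 and 1.28, and Sdhc is below 0 on both axes.

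Complex III held the member with the smallest p in controls, and the 3 called there were small subunits. Uqcr11, a small subunit of complex III, was at 994 and 823 TPM in the P209L controls and at 975, 1030 and 849 TPM in P209L mice. At 8 weeks it ran from 329 over a median of 373 to 453 TPM, so the ages were far apart. The log2 difference was 1.27 (SE 0.12, adjusted p = 1.1e-05, limma) in controls and 1.28 (SE 0.10, adjusted p = 1.4e-06, limma) in mutants. Uqcr11 lies on chromosome 10 at 80402997 to 80406830 of GRCm38, and its promoter, shown above, held the NRF1 and ETS cores.

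Uqcrq, the ubiquinone-binding small subunit, was at 487 to 614 TPM in the 3-week mice and at 261 to 317 TPM in the 8-week mice. It was higher at 3 weeks by 0.84 in controls and 1.00 in mutants on the log2 scale. Uqcr10 differed by 0.79 and 1.01 in the same order. Uqcrb and Uqcrh, also small subunits, were called higher in mutants and not in controls. Uqcrb was at 417 and 336 TPM in the P209L controls, against 261 to 436 TPM at 8 weeks. Uqcrh was at 799 and 660 TPM in the P209L controls, against 479 to 747 TPM at 8 weeks. The larger proteins of the complex also gave a mixed picture. Uqcrfs1, the Rieske iron-sulfur protein, was called higher in mutants (0.23, adjusted p = 0.047, limma) and not in controls (0.12, adjusted p = 0.36, limma). Uqcrc1 had a log2 difference of -0.24 in controls (adjusted p = 0.28, limma) and was lower in mutants at -0.43 (adjusted p = 0.024, limma), and without KO control 1 it was called lower in controls as well (-0.35, adjusted p = 0.023, limma). Uqcrc2 was at -0.07 and 0.16 and passed in neither, and cytochrome c1 (Cyc1) also passed in neither, at 0.21 and 0.19. These depended on scaling: after rescaling by size factors Cyc1 was called higher in both comparisons and Uqcrc2 in mutants, and Cyc1 was also called higher in mutants once the trend in length and GC content was taken out. In all, 3 of 9 genes of complex III were higher in controls, and 6 were higher and 1 lower in mutants, with medians of 0.21 and 0.49.

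In complex IV, 12 of 17 genes were higher in controls and 0 were lower, with a median of 0.55, and in mutants 12 were higher and 1 (Cox4i2) lower, with a median of 0.50. Cox8a, a small structural subunit that is the form used outside muscle, was at 2222 and 2172 TPM in the P209L controls and at 2261, 2323 and 2156 TPM in P209L mice. At 8 weeks it ran from 1127 over 1209 to 1361 TPM. The groups did not overlap, and the log2 difference was 0.85 (SE 0.08, adjusted p = 1.2e-05, limma) in controls and 0.87 (SE 0.07, adjusted p = 1.7e-06, limma) in mutants. Cox6c and Cox7c, both short single-form subunits, differed by 0.77 and 1.00 and by 0.79 and 1.04. Cox6c ran from 1350 to 1731 TPM at 3 weeks and from 664 to 1236 TPM at 8 weeks, and Cox7c from 679 to 932 and from 358 to 562 TPM. Cox5b differed by 0.63 and 0.58, while Cox5a, which is a separate subunit and not an isoform of it, was at -0.14 and -0.16 and passed in neither (adjusted p = 0.41 and 0.24, limma). Cox6c2, the near copy of Cox6c, was at 14.5 to 26.5 TPM at 3 weeks and 6.35 to 14.5 TPM at 8 weeks and was called higher in both, with reads that may be those of Cox6c. Cox7a2l differed by 0.37 and 0.50. Cox6a1 ran from 1070 to 1184 TPM at 3 weeks and from 694 to 799 TPM at 8 weeks, and differed by 0.55 and 0.63. Cox4i1, the ubiquitous form of the largest nuclear subunit, ran from 1152 to 1288 TPM at 3 weeks and from 908 to 982 TPM at 8 weeks, a smaller difference of 0.37 in both comparisons. The Cox4i1 call in controls was lost when the trend in length and GC content was taken out (0.21, adjusted p = 0.092, limma).

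In complex V, 10 of 17 genes were higher in controls and 14 in mutants, with 0 lower in either and medians of 0.40 and 0.56. Atp5e, the epsilon subunit, was at 608 and 580 TPM in the P209L controls, 539 to 668 TPM in P209L mice and 323 to 412 TPM in the 8-week mice, and differed by 0.74 and 0.76 on the log2 scale. The catalytic subunit Atp5b ran from 1430 to 1589 TPM at 3 weeks and from 1030 over a median of 1494 to 1547 TPM at 8 weeks, with overlapping ages and no called difference (0.15 in controls, adjusted p = 0.36, and adjusted p = 0.99 in mutants, limma). After rescaling by size factors Atp5b was called higher in both. Its partner Atp5a1, the alpha subunit, at 0.05 and -0.07, and Atp5d, the delta subunit, at 0.29 and 0.04, also passed in neither comparison, and Atp5c1, the gamma subunit of the rotating stalk, passed in mutants (0.56) and not in controls (0.26, adjusted p = 0.094, limma). The small membrane-bound subunits Atp5k, Atp5l, Atp5j2, Atp5md and Atp5mpl all passed as higher in both comparisons. In controls the call of Atp5l was lost after rescaling by size factors, and that of Atp5mpl with the trend in length and GC content taken out. Atp5md was at 1619 and 1244 TPM in the P209L controls, at 2091, 1872 and 1720 TPM in P209L mice and from 763 over a median of 902 to 1349 TPM at 8 weeks, so that P209L control 2 fell within the 8-week range. Its log2 difference was 0.59 (adjusted p = 0.015, limma) in controls and 1.07 (adjusted p = 7.3e-05, limma) in mutants. Atp5g1, Atp5g2 and Atp5g3 encode the same mature c subunit of the rotor ring. Atp5g1 differed by 0.68 and 0.79 (414 to 512 TPM at 3 weeks and 223 to 291 TPM at 8 weeks). Atp5g2 differed by 0.41 and 0.49. Atp5g3 differed by 0.20 in controls (adjusted p = 0.13, limma) and 0.23 in mutants (adjusted p = 0.043, limma), so that the c subunit gene at the highest level of the 3 at 8 weeks differed least between the ages.

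In complex I, the supernumerary subunits and the core subunits differed in their counts. Of 31 tested Nduf genes outside the core, counted here as supernumerary, 20 were higher in controls (median 0.44). In mutants 27 were higher and 1 (Ndufa4l2) lower (median 0.65), and Ndufa4 is in this count by its symbol. Of the 7 nuclear-encoded core subunits, which include those that carry the flavin and the iron-sulfur clusters, 1 was higher in controls (median 0.16) and 2 in mutants (median -0.05). The difference between the core and the supernumerary sets was not tested. It rests in part on scaling: after rescaling by size factors 5 of the 7 core genes and 21 of the 31 supernumerary genes were higher in controls, and with the trend in length and GC content taken out the counts were 0 and 17.

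Ndufa7, a supernumerary subunit, was at 337 and 301 TPM in the P209L controls, at 349, 367 and 341 TPM in P209L mice and from 174 to 231 TPM at 8 weeks, with log2 differences of 0.67 and 0.79. It lies on chromosome 17 at 33824572 to 33838317 of GRCm38. Ndufv3 ran from 285 to 334 TPM at 3 weeks and from 166 to 214 TPM at 8 weeks, and Ndufs6, a zinc-binding subunit, from 210 to 264 and from 111 to 160 TPM. Neither overlapped between the ages, and their differences in controls were 0.70 and 0.76. The core subunit called in both comparisons was Ndufs8, which carries iron-sulfur clusters, at 194 and 171 TPM in the P209L controls and 122 to 155 TPM at 8 weeks (0.41 and 0.45). Ndufv2 passed in mutants only (0.54, and 0.20 in controls with adjusted p = 0.34, limma), without a test of that difference. Ndufs4, an accessory subunit known as a target of phosphorylation, differed by 0.44 and 0.83. Ndufs1, the largest core subunit, ran from 93.1 to 109 TPM at 3 weeks and from 82.0 over a median of 114 to 123 TPM at 8 weeks. It passed in neither comparison, at -0.13 and -0.05, and its sign in controls turned to 0.01 after rescaling by size factors.

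Complex II, the only complex with no subunit from mitochondrial DNA, did not move as a block. Sdhb, the iron-sulfur subunit, was at 212 and 182 TPM in the P209L controls and 216 to 229 TPM in P209L mice, above its 8-week range of 129 to 163 TPM, and differed by 0.35 in controls (adjusted p = 0.018, limma) and 0.57 in mutants. The anchor Sdhd also differed by 0.35 (adjusted p = 0.038, limma) and 0.55. The other anchor, Sdhc, was at 61.2 and 58.0 TPM in the P209L controls, 55.9, 62.8 and 63.5 TPM in P209L mice and from 62.5 over a median of 82.7 to 95.1 TPM at 8 weeks. It was lower by a log2 difference of -0.40 (adjusted p = 0.0071, limma) in controls and -0.43 in mutants, and its lowest 8-week value was that of KO control 1. Sdha, the flavoprotein, was at -0.25 in controls (adjusted p = 0.22, limma) and lower in mutants at -0.43 (adjusted p = 0.017, limma), and without KO control 1 it was called lower in controls (-0.38, adjusted p = 0.0012, limma). In controls the call of Sdhc was lost without P209L control 2 (adjusted p = 0.088, limma), and those of Sdhb (adjusted p = 0.24, limma) and Sdhd (adjusted p = 0.40, limma) without P209L control 1. The call of Sdhb was also lost with the length and GC trend taken out and in a fit of the compared groups alone. That of Sdhd was also lost in a fit of the compared groups alone, with no filter on low genes, with a replicate block (0.31, adjusted p = 0.063, limma) and without any single one of 4 of the 8-week controls.

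In all, 16 members passed in neither comparison. They included Ndufs1, Ndufs7, Ndufv1, Ndufa9 and Ndufb10 of complex I, Cyc1 and Uqcrc2 of complex III, Cox5a, Cox7a1 and Cox8b of complex IV, and Atp5a1, Atp5b and Atp5d of complex V. The count depended on scaling. After rescaling by size factors 6 were left (Ndufs1, Ndufa10, Cox5a, Cox7a1, Cox8b and Atp5a1).

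The age difference moved with transcript length in members and other genes alike. The median length of the principal transcript was 892 nucleotides for complex I, 2066 for complex II, 1363 for complex III, 645 for complex IV and 838 for complex V. Among members under 600 nucleotides, 18 of 22 (81.8%) were higher in the 3-week controls, against 54.4% of all protein-coding genes of that length. From 600 to 1000 nucleotides the shares were 60% and 45.4%, from 1000 to 2000 nucleotides 36% and 19.8%, and over 2000 nucleotides 37.5% of 8 members and 5.46% of all. In the mutants the same 4 bins gave 86.4%, 83.3%, 64% and 37.5% of members, against 67.7%, 58.2%, 24.1% and 5.7%. In both comparisons the 3 members over 2000 nucleotides called higher were Ndufb2 (4371), Atp5g1 (4715) and Atp5md (2733). The length is that of the longest principal transcript in the annotation, which need not be the form expressed in cortex. The excess of members in that bin is therefore uncertain, and the same lengths entered the removal of the length trend below. Genes with symbols of Rpl or Rps and a number, taken as a set of cytosolic ribosomal protein genes, were at 47.6%, 45.9%, 31.8% and 25% in controls. In mutants they were at 100%, 81.1%, 72.7% and 31.2%. This symbol pattern also matches kinases named Rps6k, which are not ribosomal proteins, and 16 genes of the set were over 2000 nucleotides.

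**Figure D3:**
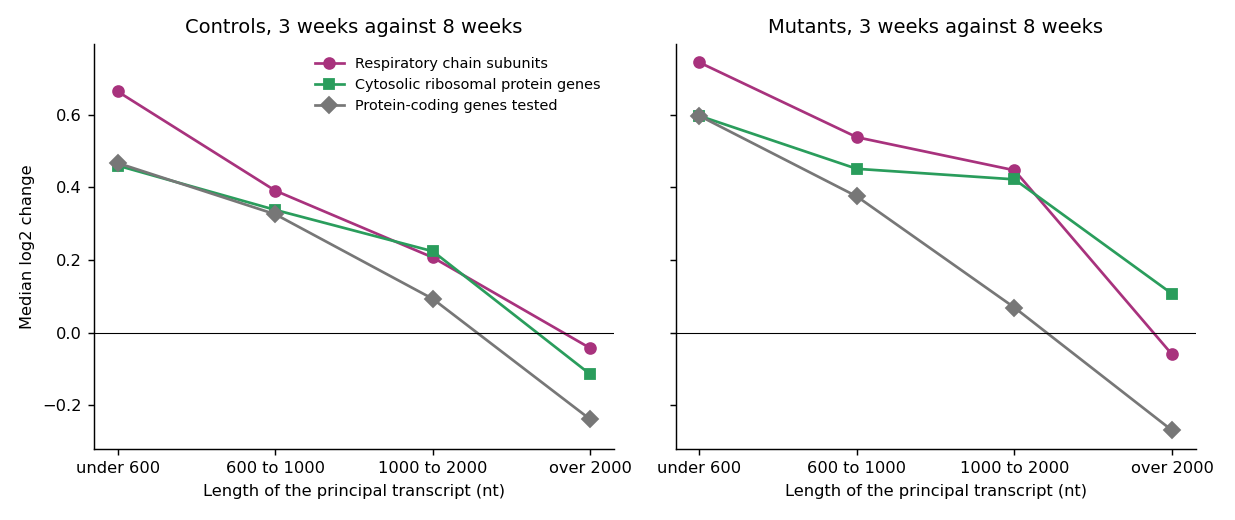
Median log2 difference between 3 and 8 weeks (vertical axis) of respiratory chain subunits, cytosolic ribosomal protein genes and all protein-coding genes tested, by length of the principal transcript in nucleotides (horizontal axis), in controls (left) and mutants (right). All 3 sets fall with length, and the members lie above all protein-coding genes in each bin. The ribosomal set was chosen by symbol (Rpl or Rps and a number) and can hold other genes.

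After the trend of each library with transcript length and GC content was removed, 40 members were higher and 3 (Uqcrc1, Ndufa4l2 and Sdhc) lower in the 3-week controls, with a median of 0.25, and 39 of the 49 first called remained. In the mutants 60 were higher and 7 lower, with a median of 0.46. The higher share of all genes then was 22.6% in controls and 27.8% in mutants. By complex, the medians in controls were then 0.28, 0.05, 0.16, 0.40 and 0.22 for complexes I to V. RNA quality and fragment length were not measured here, and their part in the result was not tested. Rescaling by size factors, which moved the median of all genes in controls from -0.12 to 0.00, gave 57 members higher and 1 lower, and 44.1% of all genes called, 21.5% as higher.

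In controls, gene lists next to the respiratory chain held smaller shares of genes called higher than the members did (56.5%). In mutants this did not hold for the ribosomal set and the carriers given below. Of 13 mitochondrially encoded protein genes, 2 were higher and 3 lower in the 3-week controls (median -0.08). The complex I genes mt-Nd4l (-0.74), mt-Nd5 (-0.46) and mt-Nd6 (-0.65) were lower, and mt-Nd3 (0.56) was higher. The other gene called higher, mt-Co3, had an SE of 1.14 and is one of 4 whose values varied widely between mice and which have near-identical nuclear copies, so its value is uncertain. Of 16 genes for matrix enzymes, chaperones and outer membrane proteins, 0 were higher and 4 lower (median -0.22), a share close to the 24.8% of all genes that were lower. These were citrate synthase (Cs, -0.46), Ogdh of the citric acid cycle (-0.98), the chaperone Hspa9 (-0.41) and the import receptor Tomm20 (-0.68). Of 13 regulators, 0 were higher and 4 lower (median -0.23), again not far from that share: Ppargc1a (-0.70) and Ppargc1b (-1.28), coactivators of mitochondrial biogenesis, Gabpa (-0.66), which binds the ETS core, and Yy1 (-0.52). When the trend in transcript length and GC content was taken out of each library, these last lists had 1 higher and 7 lower (matrix and outer membrane) and 3 higher and 3 lower (regulators). Of 47 tested factors that assemble the complexes, 12 were higher and 6 lower (median 0.07), against 11.3% and 24.8% of all genes. Among them the complex III factor Uqcc3 (0.68) and the copper chaperone Cox19 (0.75) were higher, and Coa5 (-0.76) and Atpaf1 (-0.61), an assembly factor of ATP synthase, were lower. In the mutants the counts higher and lower were 1 and 3 for the mitochondrially encoded genes and 3 and 5 for the matrix and outer membrane list. They were 0 and 4 for the regulators and 18 and 7 for the assembly factors, against 13.9% and 32.1% of all genes. The 96 tested genes of the ribosomal set, chosen by symbol and with other genes among the matches, had 38 higher and 3 lower in controls (median 0.31). In mutants they had 72 and 6 (median 0.46), a share near that of the members, of which 74.1% were higher. Between 4 carriers and subunits outside the symbol rule, Atpif1, the inhibitor of ATP synthase, was higher in controls at 0.66, and cytochrome c (Cycs) was at 0.06 (adjusted p = 0.78, limma). In mutants all 4 were higher, with Atpif1 at 0.92 and Cycs at 0.38 (adjusted p = 0.023, limma).

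The second question was whether the Hnrnph2 alleles changed these genes, and no member passed the test in any line. In KO mice against their controls 0 of 85 members passed, against 0.00615% of all genes. The members' median log2 difference was 0.04 and that of all genes 0.06, and members ran from -0.21 to 0.38. The count at an unadjusted p under 0.05 was 4 of 85. In R206W mice 0 passed, against 0.0369% of all genes, with a median of -0.04 (all genes 0.01), a range of -0.48 to 0.21 and 1 member at an unadjusted p under 0.05. In P209L mice 0 passed, against 0.0984% of all genes, with a median of 0.11 (all genes 0.02), a range of -1.06 to 0.41 and 6 members at an unadjusted p under 0.05. Other fits called 1 member at most in any of these comparisons.

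The summed TPM of the members overlapped between mutants and controls in the KO line (26994, 26551 and 23342 TPM in KO mice and 27099, 24968 and 23431 TPM in controls) and in the R206W line (24647, 25304 and 23293 TPM in R206W mice and 25070, 24753 and 25097 TPM in controls). It also overlapped in the P209L line, where one P209L mouse, at 36687 TPM, was below the control at 36733 TPM. The medians by complex were small in every line. In P209L mice they were 0.12 for complex I, 0.11 for complex II, 0.20 for complex III, 0.03 for complex IV and 0.12 for complex V. In R206W mice they lay between -0.06 and -0.02, and in KO mice between 0.02 and 0.16. In P209L mice 24 members (28.2%) were above both controls in all 3 mice and 6 (7.06%) below, against 14.2% and 10.7% of all genes. Other markers moved in the same comparison: all 6 oligodendrocyte markers were below both controls in all 3 P209L mice, with a median of -0.84, an unadjusted p under 0.05 in 6 of 6 and 0 called. The 7 mural (median -0.30), 5 leptomeningeal fibroblast (-0.36) and 5 blood markers (-0.68) were all negative, with 0 called. Their part in the members' difference was not tested. The control P209L control 2 had the lowest members of the 3-week mice, and without it the median P209L difference was 0.02. In R206W mice 3 members (3.53%) were above and 12 (14.1%) below all controls, against 8.09% and 8.11% of all genes, and in KO mice 5 (5.88%) were above and 0 below, against 5.43% and 0.824%.

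**Figure D4:**
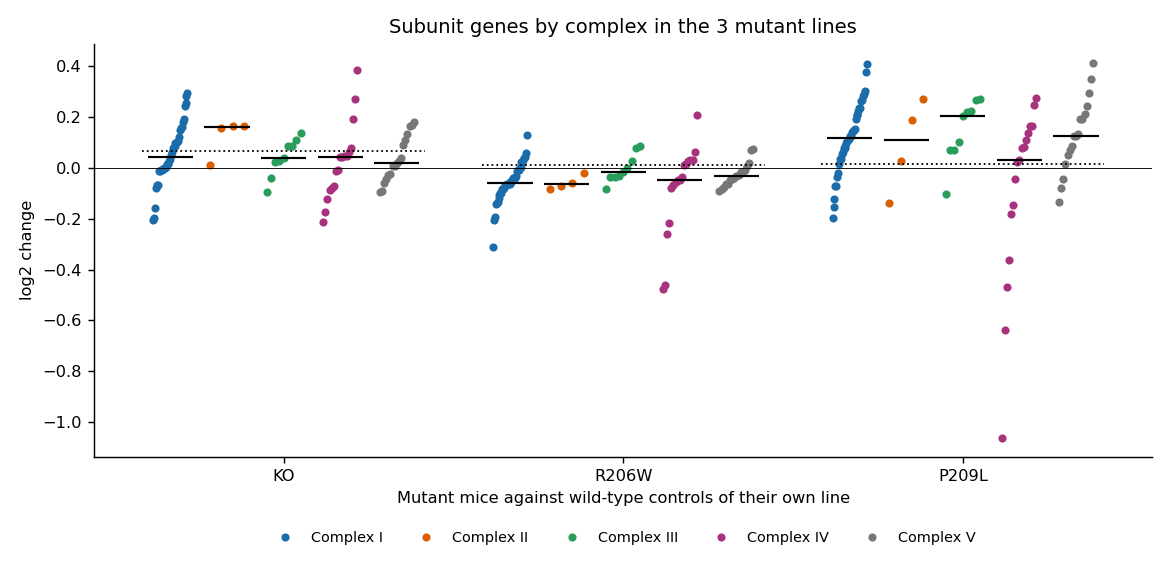
Log2 difference of each tested member from the wild-type controls of its own line (vertical axis) in KO, R206W and P209L mice, grouped and coloured by complex and sorted within it. Solid bars are the median of a complex and dotted lines the median of all genes tested in that line; no member passed the adjusted test, and the 2 lowest P209L points are Cox8b at -1.06 and Cox6b2 at -0.64.

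Cox6b2, the testis isoform of a complex IV subunit on the side facing cytochrome c, had the smallest p of all members in both knockin lines. It was at 3.07, 2.95 and 3.40 TPM in R206W mice and at 4.24, 4.72 and 5.16 TPM in their controls. It was at 4.01, 4.79 and 3.49 TPM in P209L mice and at 5.87 and 8.05 TPM in theirs. In KO mice it was at 5.29, 5.33 and 6.03 TPM, against 5.98, 4.61 and 5.27 TPM. Every knockin mouse was below all of its own controls, and the KO mice overlapped theirs.

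The log2 differences of Cox6b2 were -0.46 in R206W (95% interval -0.75 to -0.18, unadjusted p = 0.0035, adjusted p = 1, limma), -0.64 in P209L (-0.96 to -0.32, unadjusted p = 0.00064, adjusted p = 0.16, limma) and 0.06 in KO (-0.22 to 0.35). The P209L and KO effects differed by -0.70 (unadjusted p = 0.0032, adjusted p = 0.37, limma), and the KO and R206W effects by 0.52 (unadjusted p = 0.014, adjusted p = 1, limma). The P209L difference passed when the trend in length and GC content was taken out (adjusted p = 0.048, limma), and with sample weights both P209L (adjusted p = 0.042, limma) and R206W (adjusted p = 0.0055, limma) passed. Its ubiquitous partner Cox6b1 was at 629 to 870 TPM at 8 weeks and 1022 to 1252 TPM at 3 weeks, so that Cox6b2 is a small part of the pair in cortex. Without P209L control 2 the P209L difference of Cox6b2 was -0.44, and without P209L control 1 it was -0.84.

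The other members with the smallest p were different genes in each line. In KO mice they were Cox6a2 (log2 difference 0.38, SE 0.11), Ndufb7 (0.29, SE 0.09) and Ndufa7 (0.19, SE 0.09), each above all controls with an adjusted p = 0.999 (limma). Cox6a2 was at 25.0, 18.0 and 20.2 TPM in KO mice and at 14.4, 16.8 and 16.1 TPM in their controls. Ndufb7, a supernumerary subunit of complex I, was at 156, 141 and 158 TPM against 113, 134 and 124 TPM. In R206W mice Ndufs6 (-0.19) and Ndufb4c (-0.31), a near copy of Ndufb4, followed Cox6b2. In P209L mice Ndufb5 (0.38) and Ndufc2 (0.41), both supernumerary subunits of complex I, followed it. Ndufc2 was at 369, 333 and 325 TPM in P209L mice and at 284 and 233 TPM in their controls, with P209L control 2 the lower. Without that library the P209L difference was 0.26 for Ndufc2 and 0.22 for Ndufb5.

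No member passed a test of the difference between alleles. In the KO effect minus the R206W effect 0 members passed (0.0307% of all genes), 5 had an unadjusted p under 0.05 and the median was 0.07 (all genes 0.05). In the P209L effect minus the R206W effect 0 passed (0% of all genes), 3 had an unadjusted p under 0.05 and the median was 0.15 (all genes 0.00). In the P209L effect minus the KO effect 0 passed (0.0492% of all genes), 4 had an unadjusted p under 0.05 and the median was 0.07 (all genes -0.05). Members with the smallest p were Cox6b2, Ndufa7 (0.33) and Ndufb7 (0.35) for KO against R206W, Ndufc2 (0.51), Cox4i2 (-0.57) and Ndufa7 (0.28) for P209L against R206W, and Cox6b2, Cox6a2 (-0.57) and Cox4i2 (-0.63) for P209L against KO. These tests share control mice between them.

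Wild-type mice of the KO and R206W lines, which are of the same age, differed in 0 members, against 0% of all genes, with 3 members at an unadjusted p under 0.05. The median was 0.02 (all genes 0.13). The members with the smallest p were Sdhc (0.39), Sdha (0.34) and Ndufs1 (0.27), each lowest in KO control 1, which stood at 162 TPM for Sdha against 267 to 310 TPM in the other 5 controls at 8 weeks. Without KO control 1 the differences were 0.31 for Sdhc, 0.10 for Sdha and 0.13 for Ndufs1. A difference between lines at 3 weeks cannot be told apart from age.

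Tissue isoforms of complex IV were held at low levels in every mouse, and some differed between the ages from their ubiquitous partners. Cox6a2, the heart and muscle isoform that is also known from parvalbumin interneurons, ran from 22.2 to 27.5 TPM at 3 weeks and from 14.4 over a median of 16.7 to 25.0 TPM at 8 weeks, and was higher in controls (0.71, adjusted p = 0.00036, limma) and mutants (0.32, adjusted p = 0.016, limma). The call in mutants was lost with the trend in length and GC content taken out, and KO 1 was above every P209L mouse. Of 5 parvalbumin interneuron markers, 0 were higher and 3 lower in the 3-week controls (median -0.63), against 11.3% and 24.8% of all genes. Pvalb itself was at 0.17 (adjusted p = 0.46, limma). Cox7a1, the muscle partner of Cox7a2, was at 3.19 to 7.68 TPM at 3 weeks and 3.8 to 9.36 TPM at 8 weeks, and passed in no comparison, whereas Cox7a2 was higher at 3 weeks by 0.57 and 0.92. The Cox7a2 call in controls was lost without P209L control 1 (0.40, adjusted p = 0.215, limma). Cox7b differed by 0.20 in controls (adjusted p = 0.35, limma) and 0.38 in mutants (adjusted p = 0.033, limma).

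Cox8b was at 0.99 and 8.00 TPM in the P209L controls, at 1.62, 0.80 and 0.77 TPM in P209L mice and between 0.23 and 1.85 TPM at 8 weeks. A single library, P209L control 2, set its P209L difference of -1.06 (adjusted p = 0.61, limma) and its age difference in controls of 0.93, which turned to -0.16 without that library. Without P209L control 1 instead, the P209L difference was -2.15 and passed (adjusted p = 0.032, limma). Striated muscle markers (14 genes, 6 tested) summed to 120 and 115 TPM in the P209L controls, to 51.2 to 65.9 TPM in P209L mice and to 52.5 to 67.5 TPM at 8 weeks. Most of that came from Tnnc1, at 85.5 and 74.6 TPM in the P209L controls, and 7 of the 14 markers, among them Ckm and Myh4, stayed under 1 TPM in every mouse. Their part in the isoform values was not tested.

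Cox4i2 and Ndufa4l2, isoforms known for their response to low oxygen, were at low levels, and lower in the P209L mice than in the 8-week mutants. Cox4i2 was at 1.16, 1.73 and 1.74 TPM in P209L mice, 2.04 and 2.47 TPM in their controls and 1.77 to 3.69 TPM at 8 weeks. Its log2 difference in mutants was -0.68 (adjusted p = 0.0018, limma), and in controls -0.08 (adjusted p = 0.75, limma). Ndufa4l2 was at 1.27, 1.73 and 2.10 TPM in P209L mice, 2.09 and 2.05 TPM in their controls and 2.02 to 4.4 TPM at 8 weeks, with -0.70 in mutants (adjusted p = 0.0026, limma) and -0.39 in controls (adjusted p = 0.11, limma), which without KO control 1 was -0.48 and passed (adjusted p = 0.028, limma). Their partners Cox4i1 and Ndufa4, which was at 969 to 1416 TPM at 3 weeks and 589 to 905 TPM at 8 weeks, were higher in both comparisons, though Ndufa4 was not called in controls without P209L control 1 (0.48, adjusted p = 0.094, limma). Summed markers of mural cells, where both isoforms are known to be expressed (7 genes, all tested), were at 68.2 to 84.0 TPM in P209L mice, 88.9 and 110 TPM in their controls and 123 to 221 TPM at 8 weeks. Their part in these differences was not tested.

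**Figure D5:**
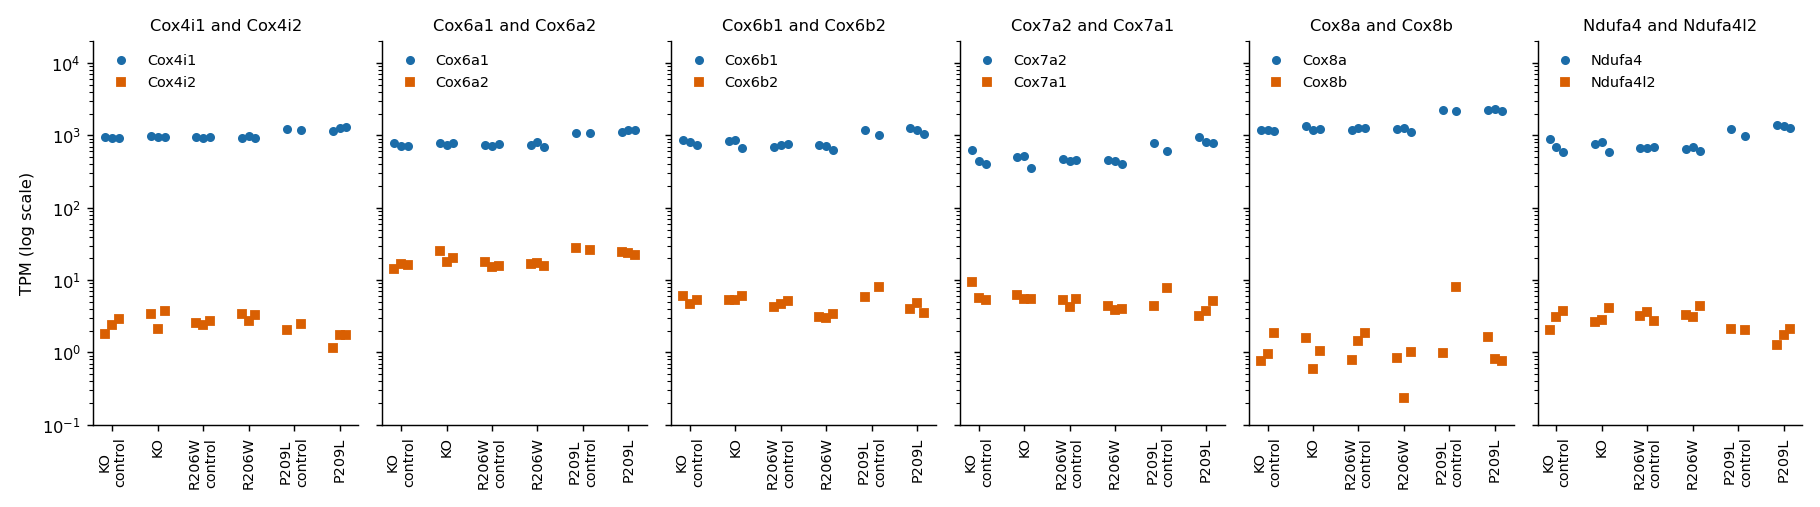
TPM (log scale) of 6 isoform pairs in each of the 17 mice by group, with the widely expressed gene as blue circles and the tissue-restricted gene as orange squares. The restricted forms lie between 0.23 and 27.5 TPM and their partners between 358 and 2323 TPM, and the Cox8b value of 8.00 TPM belongs to P209L control 2.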

How the data were processed

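Per the labels, cortex RNA was sequenced from 17 mice in 6 groups. The submitters' processing notes name Trim Galore, STAR 2.7.1a, GATK 4.0.4.0, RSEM and the mm10 build, and the authors deposited one table of TPM values per gene, scaled to a total of 1000000 in each library. TPM keeps no read counts, so depth per sample and counting error are unknown. Of 55573 rows, those with the same symbol were summed to 55453 symbols. Genes averaging 1 TPM or more over all mice (16265) were kept, and their log2(TPM + 1) values entered a linear model (limma 3.58.1, R 4.3.3; one mean per group, moderated two-sided test with a trend in variance, Benjamini-Hochberg adjustment over all genes tested, threshold 0.05). A fold change on this scale understates that of low genes. The code was tested on simulated data.

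Age contrasts set the P209L line against the mean of the KO and R206W lines, in controls or in mutants. Members and gene lists were chosen with earlier results of these data known. Members named in the text were the 3 with the smallest p in each contrast without calls, the 3 with the smallest p in each complex among called members whose ages did not overlap, a core subunit of each complex, the Sdh genes and the tissue isoforms. The further subunits Uqcrb, Uqcrh, Uqcrc2, Uqcrfs1, Cyc1, Cox5a, Cox5b, Cox6c, Cox7c, Cox7a2l, Atp5a1, Atp5c1, Atp5d, Atp5k, Atp5l, Atp5j2, Atp5md, Atp5mpl, Ndufs4, Ndufs8 and Ndufv2, and the named genes of other lists, were chosen after their values were seen. Lengths, GC content and coordinates were matched by symbol to a GENCODE annotation of GRCm38 (98.5% of symbols, and 16181 of the genes tested), and promoters came from RefSeq on GRCm38.p6. No promoter window was held for Sdhc, Uqcrq, Cox6a2, Cox4i2 and Ndufa4l2, among others. Alternatives were other pseudocounts, filters, scalings, sample weights, a replicate block and leaving out each mouse.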

Additional observations from a re-analysis of the deposited data

Results flagged for a closer look

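One pattern between the lines was flagged. The median level of all tested members in each mouse, on the log2(TPM + 1) scale, was lower in R206W mice than in their controls by a difference of -0.05, with all 3 R206W mice below all 3 controls. That difference is smaller than the replicate spread of this median (an SD of 0.076). The median level was higher in P209L mice than in their controls by 0.1929, with all 3 P209L mice above both controls. The difference between the lines in this median was not tested, and line and age cannot be told apart in it. In the member-by-member test of the P209L effect against the R206W effect (limma), 0 of 85 members passed and 3 had an unadjusted p under 0.05. Another measure, the median P209L effect over members, was 0.11. Without P209L control 2, the library with choroid plexus transcripts, that measure was 0.02.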

How the results depend on the processing

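Of 540 alternative values of counts and medians, 508 stayed within 1.5 times the count or within the replicate spread (an SD of 0.076 for medians), and of 1794 alternatives for single genes and motifs, 1712 kept their direction and side of the threshold. Many of these values had little room to move. Comparisons without called members mostly stayed so, and leaving out a mouse outside a comparison leaves each gene's difference in it unchanged. The totals are therefore no measure of stability. The cause of the moved values was not tested. With size factors the members' median was -0.039 in KO, -0.124 between the 8-week controls, 0.528 between the ages in controls and 0.741 in mutants. With the length and GC trend taken out it was -0.048, -0.059, 0.245 and 0.46 in the same order, and 1 member was called in P209L. With sample weights it was 0.222 in KO (all genes -0.075) and 0.476 between the ages in mutants. It was 0.246 for KO minus R206W and -0.079 for P209L minus KO, and 1 member was called in each of R206W and P209L. The estimate of these weights stopped before full convergence. Between the 8-week controls the members' median was -0.082 with quantile normalization and -0.083 without mitochondrial genes.

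Leaving out each mouse in turn gave medians of 0.002 to 0.112 in KO, 0.016 to 0.204 in P209L, 0.316 to 0.484 between the ages in controls, 0.027 to 0.152 for KO minus R206W, 0.072 to 0.237 for P209L minus R206W and -0.016 to 0.159 for P209L minus KO. The members called were 0 to 1 in P209L, 24 (without P209L control 1) to 60 (without KO control 1) between the ages in controls and 60 to 70 in mutants. Leaving out KO control 1 and P209L control 2 together, chosen after seeing the data, gave medians of 0.016 in P209L, 0.519 between the ages in controls, 0.072 for P209L minus R206W and -0.048 for P209L minus KO. With 1 control left in the P209L line, that mouse was assumed to vary like the other groups.

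Between the ages in controls, Ndufs1 turned to 0.0054 with size factors, 0.0161 with quantile normalization and 0.0178 with the length and GC trend taken out, Atp5b to -0.1672 with quantile normalization and Cox4i2 to 0.0241 with size factors (-0.1733 to 0.0175 leaving out each mouse). Cox7a1 was -0.1552 with the trend taken out, -0.2134 without both libraries and -0.3254 to 0.362 leaving out each mouse, and Cox8b was -0.2298 and -0.1589 to 2.0182 in the last settings. With a mean of at least 5 TPM required, the lowest isoforms were not tested.

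Samples with the same replicate number did not deviate together (correlations of -0.113 to 0.331), so the numbers were not used as pairs. With a replicate block 47 members were called between the ages in controls, 69 in mutants and 0 in the other comparisons. TPM gives no depth, so no limit of detection could be set for the low isoforms.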
